A study of Mus musculus with 4 samples.

Results

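A set of 10 genes of lipoprotein and myelin lipid handling was followed through single microglia of mice losing myelin. They are Apoe, Apoc1, Lpl, Abca1, Abcg1, Plin2, Soat1, Nr1h3, Lipa and Npc2, chosen by symbol for their roles in the uptake, hydrolysis, storage and export of lipid, and all 10 were found in the count tables. The samples were 2 PRMT1FL mice, labelled wild type, and 2 PRMT1Cx3cr1-KO mice, 1 droplet library each. PRMT1FL mice carry loxP-flanked alleles of Prmt1, an arginine methyltransferase gene, and in PRMT1Cx3cr1-KO mice a tamoxifen-dependent Cre recombinase under the Cx3cr1 promoter deletes them. That promoter is active in microglia and also in border macrophages and monocytes. Both genotypes received tamoxifen before the diet, per the methods of the study, which do not state outright whether PRMT1FL mice carried the Cre driver. In tamoxifen-treated floxed mice the driver would delete Prmt1 as in PRMT1Cx3cr1-KO mice. An effect of the driver thus cannot be told apart from that of the deletion. All 4 mice ate 0.2% cuprizone, a copper chelator that kills oligodendrocytes, for 5 wk, and cells were sorted on CD11b and CD45. The labels give 5 to 6 wk as the age at the start of the diet, whereas the methods of the study give that age for tamoxifen. No group without cuprizone was measured, so the values describe microglia of demyelinating brain in both genotypes.

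Microglia that engulf myelin debris take up large amounts of cholesterol, sphingolipid and phospholipid. Cholesteryl esters are split in the lysosome by the acid lipase encoded by Lipa, and free cholesterol is bound by NPC2 and handed to the membrane for release. It is then either re-esterified by SOAT1 and kept in droplets coated by PLIN2, or exported by the pumps ABCA1 and ABCG1 onto particles that carry apolipoprotein E and apolipoprotein C1. The nuclear receptor LXR-alpha, the product of Nr1h3, senses oxidised sterols and switches on the export genes, while lipoprotein lipase, encoded by Lpl, splits triglyceride in lipoprotein particles at the cell surface.

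The members lie on 8 chromosomes of GRCm38, the assembly also called mm10. Apoe (ENSMUSG00000002985, chromosome 7, 19696109 to 19699188) and Apoc1 (ENSMUSG00000040564, chromosome 7, 19689481 to 19692660) are neighbours on the minus strand and do not overlap. Of the genes discussed most below, Lipa (ENSMUSG00000024781) lies on chromosome 19 from 34492318 to 34527474, Plin2 (ENSMUSG00000028494) on chromosome 4 from 86648386 to 86670060 and Abca1 (ENSMUSG00000015243) on chromosome 4 from 53030787 to 53159895, all on the minus strand. These 3 were higher together in PRMT1Cx3cr1-KO mice within the same microglial states, so the 250 bases before the RefSeq start of each are shown (build GRCm38.p6, minus strand, written 5′ to 3′). The windows are chr19:34527475-34527724 for Lipa, chr4:86670060-86670309 for Plin2 and chr4:53159896-53160145 for Abca1. Capitals mark matches to CACGTG, the E-box core that MiT and MYC factors bind, and to NGGTNANNNNNGGTCA, a relaxed form of the paired half-sites that LXR binds.
Lipa: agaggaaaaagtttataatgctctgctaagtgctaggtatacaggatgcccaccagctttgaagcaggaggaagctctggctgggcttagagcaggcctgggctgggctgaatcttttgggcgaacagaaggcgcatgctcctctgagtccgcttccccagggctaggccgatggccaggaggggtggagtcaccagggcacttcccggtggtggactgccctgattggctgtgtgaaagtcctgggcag
Plin2: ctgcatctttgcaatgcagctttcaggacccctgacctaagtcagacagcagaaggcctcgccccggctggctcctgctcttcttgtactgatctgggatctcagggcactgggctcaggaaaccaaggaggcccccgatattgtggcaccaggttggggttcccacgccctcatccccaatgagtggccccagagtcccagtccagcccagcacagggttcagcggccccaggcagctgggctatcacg
Abca1: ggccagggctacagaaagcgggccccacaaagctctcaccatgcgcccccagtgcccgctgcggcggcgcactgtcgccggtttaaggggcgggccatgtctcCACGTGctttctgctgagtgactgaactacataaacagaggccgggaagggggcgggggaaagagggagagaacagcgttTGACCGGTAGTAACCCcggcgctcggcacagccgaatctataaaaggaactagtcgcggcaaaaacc
Both matches fell in the Abca1 window, the E-box at bases -147 to -142 from the start and the LXR-like match, on the opposite strand, at -67 to -52. The letters of the relaxed motif were chosen after the Abca1 window had been read. Over the same window, 6.02% of 32851 mouse promoters held the E-box core and 0.177% held the relaxed LXR motif. The stricter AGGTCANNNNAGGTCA occurred in 0.0152% and in no member window, and the CLEAR element GTCACGTGAC, which contains the E-box core, in 0.240% and in no member window. Both strands were searched. RefSeq windows were matched for 7 of the 10 members, 10 windows in all, and Apoc1, Lpl and Abcg1 were not matched. A match describes letters in these windows and no binding was measured.

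The libraries held 76943248 to 99559644 unique molecular identifiers (UMIs), the barcodes that mark single RNA molecules. After the filters of the study, 40869 cells were kept, with a median of 6066 to 6959.5 UMIs per cell, and 31 to 46 barcodes were shared between any pair of libraries. Cells were clustered over all mice without the 10 members, 86 other listed lipid genes and 2047 genes past a cut on genotype difference. That cut, on all cells summed, was an unadjusted edgeR p under 0.01 or a log2 fold change over 1 in size. A cluster can therefore join cells of both genotypes that differ in genes left out. The 10 microglial clusters held 7710 to 10890 cells per mouse, in which P2ry12, Cx3cr1 and C1qa were found in every library. Of these, 8 had at least 50 cells in each mouse and are called states here. Proliferating-like (Mki67, Top2a) and interferon-responsive-like cells (Rsad2, Ifit3) were named from markers. Il1b/Tnf cells, P2ry12/Il7r cells (8.05 to 12.9% of microglia) and Jun/Klf2 cells (12.99 to 17.6%) were named by genes picked from among their leading ones. The first leading gene of P2ry12/Il7r cells was Hspa1b and that of Jun/Klf2 cells was Jun, both dissociation-response markers. Low-Malat1 cells were named by their low nuclear RNA Malat1, and clusters 1 and 7 stayed unnamed. In low-Malat1 cells the median log2 ratio to all other cells was 2.99 for erythrocyte, 0.73 for proliferation and -4.09 for dissociation-response markers. Levels are UMIs per 1000000 UMIs of the same cells (CPM). One tag per molecule is counted near the 3′ end, so gene length does not enter. Levels of different genes are set side by side as a description, since how well each transcript is captured was not measured. With 2 mice against 2, an exact two-sided permutation test cannot go below p = 0.333, so p-values come from models fitted across all genes and adjusted over all of them. In such sums, fewer cells with a transcript and less transcript per cell cannot be told apart. Prmt1 itself stood at 90.9 and 83.8 CPM in PRMT1FL and 70.3 and 70.7 CPM in PRMT1Cx3cr1-KO microglia, which did not overlap. Its log2 fold change was -0.38 (standard error 0.07, edgeR adjusted p = 0.0753). Over all cells kept, Cx3cr1, whose promoter drives the Cre, stood at 1428 and 1525 CPM in PRMT1FL and at 846 and 839 CPM in PRMT1Cx3cr1-KO mice. The part of the Cre driver in this and the other genotype differences was not tested and cannot be told apart from that of the deletion.

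Apoe far exceeded every other member. It took 3.32 to 3.75% of all microglial UMIs and 89.6 to 91.2% of the UMIs of the 10 members. Its mean level over the 4 mice was 35260 CPM, followed by Npc2 at 1724 CPM and Lpl at 881 CPM, and no value of one of these genes overlapped the next. Apoc1 (261 CPM), Abca1 (217 CPM), Lipa (173 CPM), Abcg1 (148 CPM), Plin2 (144 CPM) and Soat1 (131 CPM) followed, and each of these overlapped its neighbour in the order. Nr1h3 came last at 0.909 CPM, apart from Soat1. Of microglia thinned to 2000 UMIs, 96.1 to 98.8% held a UMI of Apoe, 92.1 to 94.8% one of Npc2 and 58.6 to 63.5% one of Lpl. Nr1h3 was found in 0.131 to 0.290% of them. Neutrophil-like cells served as a rough measure of free RNA. Transcripts made by these cells themselves cannot be told apart from free RNA in their shares. Of 71 such cells, all from PRMT1FL mice, 45 had at least 2000 UMIs and were thinned alike. Before thinning, the median depth was 5690 UMIs for these 45 and 3465 for all 71. All microglia of these mice, shallow ones included, had medians of 6283.5 and 7166. Of the 45 cells, 57.8% held Apoe (exact 95% interval 42.2 to 72.3%), 24.4% Npc2 and 8.89% Lpl. The shares for Lipa, Abcg1 and Plin2 there were 2.22, 4.44 and 11.1%, and Nr1h3 was found in 0 of 45 cells, which allows a share of up to 6.67%. Intervals and limits cover counting error alone. The Nr1h3 share in microglia lay below that limit and is not read as expression.

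**Figure D1:**
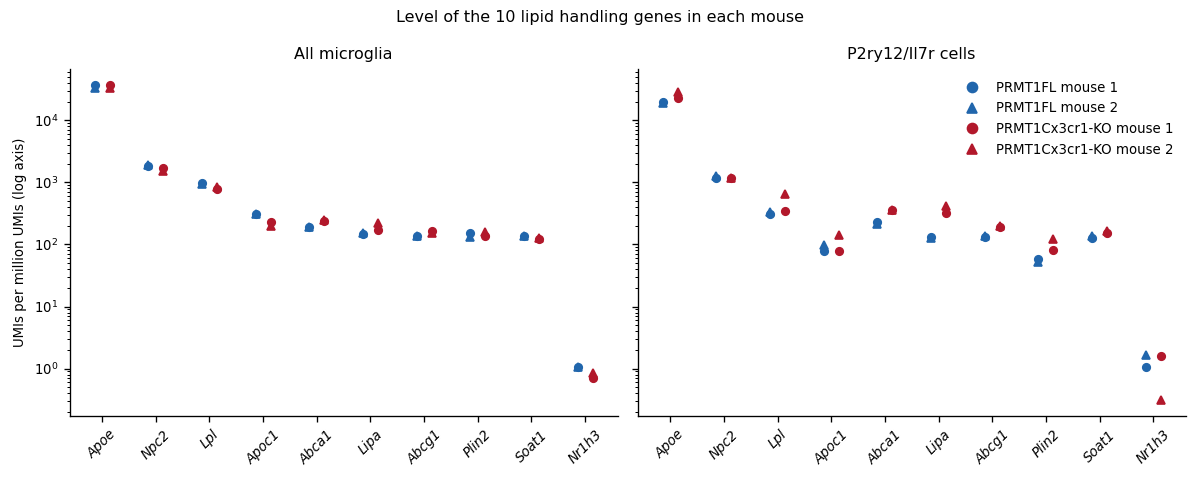
Level of the 10 genes in CPM (log axis) in all microglia (left) and in P2ry12/Il7r cells (right), 1 point per mouse, blue for PRMT1FL and red for PRMT1Cx3cr1-KO. In the right panel Lipa lies at 125 and 130 in PRMT1FL and at 321 and 423 in PRMT1Cx3cr1-KO mice, and in the left panel at 148 and 152 against 169 and 224.

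Over microglia as a whole, none of the 10 members was called between genotypes at an edgeR adjusted p under 0.05. Among all 13830 genes tested, 0.615% were called. An unadjusted edgeR p under 0.05 was found for 7 of the 10 members, beside 2735 of all 13830 genes. DESeq2 called 4 of the 10 (Apoc1, Lpl, Abca1 and Npc2), against 5.30% of all genes. By level alone, Abca1, Abcg1 and Lipa had PRMT1Cx3cr1-KO values that lay above those of PRMT1FL mice, those of Apoc1, Lpl, Soat1, Nr1h3 and Npc2 lay below, and those of Apoe and Plin2 overlapped. Levels did not overlap for 56.1% of all genes tested, 38.9% with both PRMT1Cx3cr1-KO mice above and 17.3% with both below. The members' median log2 fold change was -0.14, beside -0.00 for all genes tested.

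Of the particle genes, Apoe stood at 37514 and 33228 CPM in PRMT1FL and at 36709 and 33588 CPM in PRMT1Cx3cr1-KO microglia. The genotypes overlapped (log2 fold change -0.08, standard error 0.13, edgeR adjusted p = 0.768). Apoc1, which encodes a small apolipoprotein of the same particles, stood at 312 and 304 CPM in PRMT1FL and at 230 and 197 CPM in PRMT1Cx3cr1-KO mice. Both PRMT1Cx3cr1-KO values were below both others, and the log2 fold change was -0.60 (standard error 0.10, edgeR adjusted p = 0.0717), which missed the threshold. It passed the test when either PRMT1Cx3cr1-KO mouse was left out, at -0.74 without mouse 1 (edgeR adjusted p = 0.00012) and -0.47 without mouse 2 (edgeR adjusted p = 0.00486). Lpl levels were 988 and 924 CPM in PRMT1FL and 781 and 831 CPM in PRMT1Cx3cr1-KO mice (log2 fold change -0.32, standard error 0.07, edgeR adjusted p = 0.101). For Lpl too, leaving out either PRMT1Cx3cr1-KO mouse gave a call, at -0.30 without mouse 1 (edgeR adjusted p = 0.0379) and -0.34 without mouse 2 (edgeR adjusted p = 0.0396). The number of calls over all genes moved with the mouse left out, to 2438 and 811 genes without PRMT1Cx3cr1-KO mouse 1 and 2 and to 4 and 6 genes without PRMT1FL mouse 1 and 2. Without either PRMT1FL mouse no member was called, at edgeR adjusted p = 0.513 and 0.512 for Apoc1 and 0.558 and 0.543 for Lpl.

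Of the export and sensing genes, Abca1 stood at 193 and 192 CPM in PRMT1FL and at 241 and 244 CPM in PRMT1Cx3cr1-KO mice (log2 fold change 0.26, standard error 0.06, edgeR adjusted p = 0.105). Abcg1 stood at 136 and 136 CPM against 163 and 155 CPM (log2 fold change 0.15, standard error 0.07, edgeR adjusted p = 0.282). Both pump genes had higher values in each PRMT1Cx3cr1-KO mouse than in either PRMT1FL mouse and did not pass the test over all genes. Abca1 passed it without PRMT1Cx3cr1-KO mouse 1 (edgeR adjusted p = 0.0299, with 2438 genes called in all) and did not without PRMT1FL mouse 1 or 2 (0.546 and 0.586). Nr1h3 stood near 1 CPM, at 1.05 and 1.04 against 0.701 and 0.847 CPM.

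Of the storage genes, Soat1, whose product esterifies cholesterol, stood at 139 and 135 CPM in PRMT1FL and at 124 and 127 CPM in PRMT1Cx3cr1-KO mice (log2 fold change -0.20, standard error 0.06, edgeR adjusted p = 0.147). Plin2 stood at 153 and 131 CPM against 137 and 156 CPM and overlapped. Of the lysosomal genes, Lipa stood at 148 and 152 CPM in PRMT1FL and at 169 and 224 CPM in PRMT1Cx3cr1-KO mice (log2 fold change 0.31, standard error 0.12, edgeR adjusted p = 0.219). PRMT1Cx3cr1-KO mouse 2 was the highest, and without PRMT1Cx3cr1-KO mouse 1 the log2 fold change was 0.48 (edgeR adjusted p = 0.000936). Npc2 stood at 1844 and 1876 CPM against 1679 and 1497 CPM (log2 fold change -0.30, standard error 0.10, edgeR adjusted p = 0.173), and at -0.41 without PRMT1Cx3cr1-KO mouse 1 (edgeR adjusted p = 0.0111). Without PRMT1FL mouse 1 or 2 neither was called, at edgeR adjusted p = 0.639 and 0.627 for Lipa and 0.587 and 0.627 for Npc2.

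The states differed in how much of each transcript they held, by 1.75-fold (Npc2) to 3.54-fold (Apoc1) between the highest and the lowest state among the members above 10 CPM. Because members were kept out of the clustering but vary together with genes that were used, these levels are a description. Apoe was highest in cluster 7, at a mean of 40922 CPM over the mice (38268 to 44439), and lowest in proliferating-like cells, at 21740 CPM (20390 to 22978). P2ry12/Il7r cells were next to lowest at 22365 CPM (18926 to 28127). Every neighbour in the order of states overlapped for Apoe, Plin2, Lipa, Npc2 and Nr1h3. Lpl was highest in cluster 1, at 1199 CPM (1067 to 1294), and lowest in P2ry12/Il7r cells, at 413 CPM (314 to 652), with a gap between low-Malat1 cells (704 CPM) and Jun/Klf2 cells (501 CPM). Apoc1 was likewise lowest in P2ry12/Il7r cells, at 99.5 CPM (78.5 to 142), apart from the next state.

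The pump genes had another order. Abca1 was highest in P2ry12/Il7r cells, at 291 CPM (216 to 365), then in Jun/Klf2 cells, at 274 CPM (224 to 329), and these overlapped. These means join both genotypes, and in these states Abca1 was called higher in PRMT1Cx3cr1-KO mice, as given below. The lower ends, from PRMT1FL mice, lay near that of Il1b/Tnf cells (219 to 260 CPM). The place of these states is thus not that of PRMT1FL mice alone. Abca1 was lowest in low-Malat1 cells, at 110 CPM (99.1 to 123), apart from proliferating-like cells at 151 CPM, which were apart from the rest. Abcg1 was highest in interferon-responsive-like cells, at 236 CPM (222 to 247), apart from P2ry12/Il7r cells at 165 CPM (133 to 200), and lowest in low-Malat1 cells, at 88.2 CPM (78.5 to 98.3). Soat1 was also lowest in low-Malat1 cells (86.3 CPM, 80.3 to 93.2), apart from the other states. Npc2 was highest in those cells, at 2111 CPM (1811 to 2318).

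**Figure D2:**
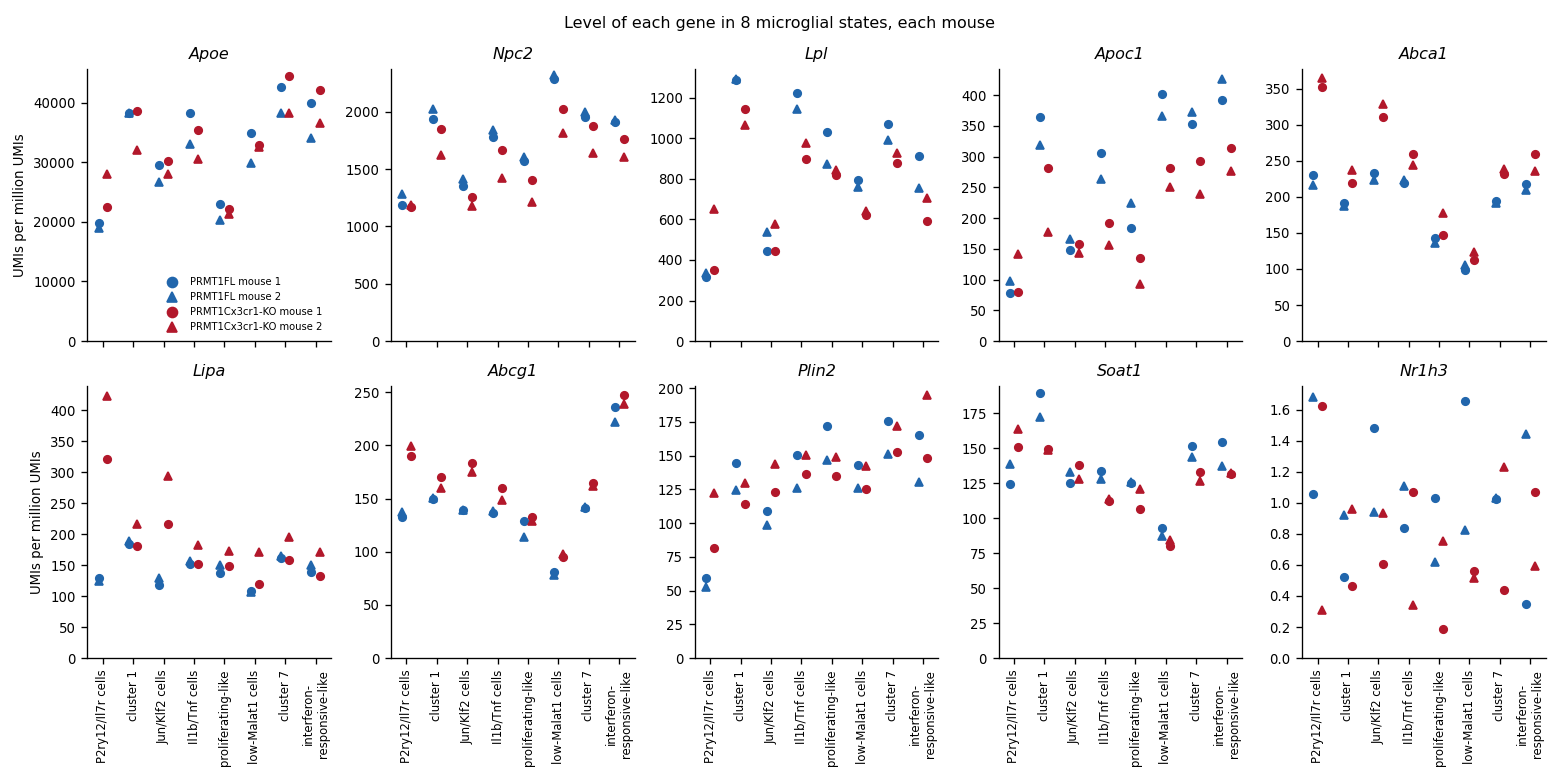
Level of each gene in CPM in 8 microglial states, 1 point per mouse, blue for PRMT1FL and red for PRMT1Cx3cr1-KO. Lipa, Plin2 and Abca1 are higher in both red points than in both blue points in P2ry12/Il7r and Jun/Klf2 cells, Apoc1 and Lpl are lower in both red points in 6 of 8 states, and Apoe overlaps in 7 of 8.

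Within states the genotypes were compared again, from UMIs summed per mouse within each state. Of 74 pairs of a member and a state that could be tested, 14 were called, beside 3.62% of all pairs of a gene and a state, 9 higher and 5 lower in PRMT1Cx3cr1-KO mice, over 6 members and 5 states. Whether the genotype difference in a state departed from that in the other microglia was tested with 1 value per mouse, and 13 of 74 pairs were called, beside 2.06% of all pairs. The higher calls all came from P2ry12/Il7r cells and Jun/Klf2 cells, and the lower ones were of Apoc1 and Lpl in other states.

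In P2ry12/Il7r cells, 5 of the 9 members tested were called higher and none lower in PRMT1Cx3cr1-KO mice. Among all 10320 genes tested there, 11.8% were called, 6.04% higher and 5.78% lower. The members' median log2 fold change was 0.53, beside 0.00 for all genes. The called members were Lipa, Plin2, Abca1, Lpl and Abcg1, that is, a lysosomal lipase, a droplet coat, both pumps and the surface lipase.

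Lipa, for lysosomal acid lipase, stood at 130 and 125 CPM in PRMT1FL and at 321 and 423 CPM in PRMT1Cx3cr1-KO P2ry12/Il7r cells. The genotypes were far apart (log2 fold change 1.57, standard error 0.13, edgeR adjusted p = 9.2e-09). The difference exceeded that in the other microglia by 1.31 on the log2 scale (standard error 0.10, limma adjusted p = 5.4e-13). Lipa was called in each of the 10 alternatives tried, at 1.33 to 1.79. Plin2 stood at 59.1 and 52.9 CPM in PRMT1FL and at 81.9 and 122 CPM in PRMT1Cx3cr1-KO cells. The values did not overlap, PRMT1Cx3cr1-KO mouse 2 being the higher, and the log2 fold change was 0.92 (standard error 0.15, edgeR adjusted p = 0.0002). It exceeded that in the other microglia by 0.88 (standard error 0.12, limma adjusted p = 8.5e-06). Plin2 too was called in each of the 10 alternatives, at 0.54 to 1.16.

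Abca1 stood at 231 and 216 CPM in PRMT1FL and at 352 and 365 CPM in PRMT1Cx3cr1-KO P2ry12/Il7r cells. The 2 mice of each genotype lay close together, and the log2 fold change was 0.69 (standard error 0.11, edgeR adjusted p = 0.00018), called in each of 10 alternatives at 0.65 to 0.85. The excess over the other microglia was 0.46 (standard error 0.10, limma adjusted p = 0.0013), and without PRMT1FL mouse 1 or 2 its limma adjusted p was 0.118 or 0.114. Abcg1 stood at 133 and 138 CPM in PRMT1FL and at 190 and 200 CPM in PRMT1Cx3cr1-KO cells. Its log2 fold change was 0.53 (standard error 0.12, edgeR adjusted p = 0.0028), and the call was lost without PRMT1FL mouse 1 (0.49, edgeR adjusted p = 0.0795). The excess over the other microglia was 0.40 (standard error 0.10, limma adjusted p = 0.00824), lost without either PRMT1FL mouse (limma adjusted p = 0.285 without mouse 1 and 0.0991 without mouse 2) and without PRMT1Cx3cr1-KO mouse 2 (0.28, limma adjusted p = 0.131).

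Lpl rested on 1 mouse. It stood at 314 and 333 CPM in PRMT1FL cells, at 351 CPM in PRMT1Cx3cr1-KO mouse 1 and at 652 CPM in PRMT1Cx3cr1-KO mouse 2. The log2 fold change was 0.65 (standard error 0.18, edgeR adjusted p = 0.0151). Leaving out PRMT1Cx3cr1-KO mouse 2 gave 0.10 (edgeR adjusted p = 0.761). DESeq2 did not call it (0.64, adjusted p = 0.719), nor did edgeR at the raised clustering resolution (0.61, adjusted p = 0.0625).

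Apoe and Soat1 were not called within P2ry12/Il7r cells, yet their genotype difference there departed from that in the other microglia. Apoe stood at 19884 and 18926 CPM in PRMT1FL and at 22524 and 28127 CPM in PRMT1Cx3cr1-KO cells (log2 fold change 0.39, standard error 0.17, edgeR adjusted p = 0.144). The excess over the other microglia was 0.47 (standard error 0.15, limma adjusted p = 0.0423), and it was lost without either PRMT1FL mouse (limma adjusted p = 0.600 without mouse 1 and 0.383 without mouse 2) and without PRMT1Cx3cr1-KO mouse 2 (0.21, limma adjusted p = 0.332), and at the raised clustering resolution (0.56, limma adjusted p = 0.0902). Soat1 stood at 125 and 139 CPM in PRMT1FL and at 151 and 164 CPM in PRMT1Cx3cr1-KO cells, against lower values in PRMT1Cx3cr1-KO mice over all microglia. The excess was 0.49 (standard error 0.10, limma adjusted p = 0.0015), and 0.37 without PRMT1FL mouse 1 (limma adjusted p = 0.248). In all, 6 of 9 members had such a departure in P2ry12/Il7r cells, against 7.17% of all genes, each of the 6 towards higher levels in PRMT1Cx3cr1-KO mice, as 4.26% of all genes had. Apoc1 overlapped (78.5 and 97.9 against 79.8 and 142 CPM). Npc2 lay just lower in both PRMT1Cx3cr1-KO mice (1188 and 1284 against 1174 and 1184 CPM) and was not called (log2 fold change -0.06, standard error 0.12, edgeR adjusted p = 0.812). Nr1h3 had too few UMIs to be tested there.

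Other transcripts also differed between the genotypes in P2ry12/Il7r cells. The summed level of 5 markers listed as stress microglia was 482 and 402 CPM in PRMT1FL and 1334 and 1256 CPM in PRMT1Cx3cr1-KO cells. All 5 (Gdf15, Il7r, Pdlim4, Tnfaip2 and Nfkbia) were higher in both PRMT1Cx3cr1-KO mice. The list follows clusters D and E of the study, which did not itself call them stress microglia. They were defined in this same experiment, with E reported as gained and D as lost in PRMT1Cx3cr1-KO mice. The list is thus not independent of genotype. Of 8 homeostatic markers, P2ry12 stood at 1706 and 1643 CPM in PRMT1FL and 2471 and 1867 CPM in PRMT1Cx3cr1-KO cells, and Siglech at 1110 and 1110 against 384 and 243 CPM. Tmem119, Selplg and Sox4 were, like Siglech, lower in both PRMT1Cx3cr1-KO mice. Gpr34 was, like P2ry12, higher in both, and Sall1 and P2ry13 overlapped. The summed level of all 8 was 7840 to 7999 CPM in PRMT1FL and 5972 to 7847 CPM in PRMT1Cx3cr1-KO cells. Of 6 markers of disease-associated microglia, 5 were higher in both PRMT1Cx3cr1-KO mice, each highest in mouse 2, and Cybb overlapped. That list follows cluster B1 of the study, likewise reported as gained in PRMT1Cx3cr1-KO mice. Spp1 stood at 352 and 391 against 438 and 884 CPM, Gpnmb at 18.7 and 25.5 against 34.9 and 52.7 CPM and Ms4a7 at 5.63 and 5.04 against 5.67 and 23.8 CPM, while Cd38 and Clec12a lay below 5 CPM. The 8 markers of border-associated macrophages summed to 10.2 and 10.6 CPM in PRMT1FL and to 17.0 and 57.8 CPM in PRMT1Cx3cr1-KO cells, with Cd163 and Lyve1 at 0 in all 4 libraries. Most of that rise was Pf4, at 4.93 and 5.87 against 10.1 and 48.5 CPM. Mrc1 stood at 4.22 and 3.08 against 5.27 and 7.32 CPM. The 8 oligodendrocyte markers summed to 103 and 104 against 78.6 and 67.1 CPM, with Mog and Cldn11 at 0 in all libraries, and the 10 dissociation-response markers to 7109 and 5444 against 6217 and 4545 CPM. Among the latter, Hspa1b stood at 481 and 534 against 173 and 152 CPM and Hspa1a at 300 and 370 against 128 and 108 CPM. Egr1 and Zfp36 were also lower in both PRMT1Cx3cr1-KO mice, Fos and Dusp1 were higher in both, and the rest overlapped. The median depth was 2785 and 3413.5 UMIs in PRMT1FL and 2132 and 2968.5 UMIs in PRMT1Cx3cr1-KO cells. Shifts of some of these markers were not confined to P2ry12/Il7r cells. In low-Malat1 cells, where no member was called higher, all 5 stress markers were higher in both PRMT1Cx3cr1-KO mice. Pdlim4 stood there at 18.0 and 17.8 against 61.7 and 107 CPM and Pf4 at 22.1 and 23.6 against 40.2 and 95.8 CPM. In Il1b/Tnf cells Pf4 stood at 13.5 and 10.9 against 32.2 and 78.5 CPM, while Tnfaip2 and Nfkbia overlapped. The part of these markers in the result was not tested.

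Thinning each P2ry12/Il7r cell to 2000 UMIs left 644 of 877 and 670 of 862 cells of PRMT1FL mice. In PRMT1Cx3cr1-KO mice it left 451 of 854 and 897 of 1370 cells. The 192 to 473 shallower cells left out per mouse were a larger share in both PRMT1Cx3cr1-KO mice. At this equal depth the mean count of Lipa per cell was 0.230 and 0.251 UMIs in PRMT1FL and 0.645 and 0.975 UMIs in PRMT1Cx3cr1-KO mice. A UMI of Lipa was found in 19.4 and 21.8% of PRMT1FL cells and in 42.8 and 52.3% of PRMT1Cx3cr1-KO cells (28.8 and 32.9% against 44.3 and 60.6% before thinning). Cells with 2 or more UMIs of Lipa made up 2.95 and 2.99% in PRMT1FL and 14.6 and 23.9% in PRMT1Cx3cr1-KO mice. At equal depth, both the share of cells with a UMI and the share with several were higher in each PRMT1Cx3cr1-KO mouse than in either PRMT1FL mouse. In neutrophil-like cells the share with Lipa was 2.22% (exact 95% interval 0.0562 to 11.8%). Abca1 had a mean of 0.483 and 0.384 UMIs per PRMT1FL cell and 0.656 and 0.715 UMIs per PRMT1Cx3cr1-KO cell, and Abcg1 had 0.267 and 0.266 against 0.435 and 0.434. Plin2 had 0.106 and 0.0821 UMIs against 0.155 and 0.203. Its share of cells with a UMI in PRMT1FL mice, 9.16 and 7.16%, was no higher than the 11.1% of neutrophil-like cells. In neutrophil-like cells, Plin2 RNA of their own cannot be told apart from free RNA. Lpl had 0.455 and 0.466 UMIs per PRMT1FL cell against 0.645 and 1.07, again with PRMT1Cx3cr1-KO mouse 2 highest.

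**Figure D3:**
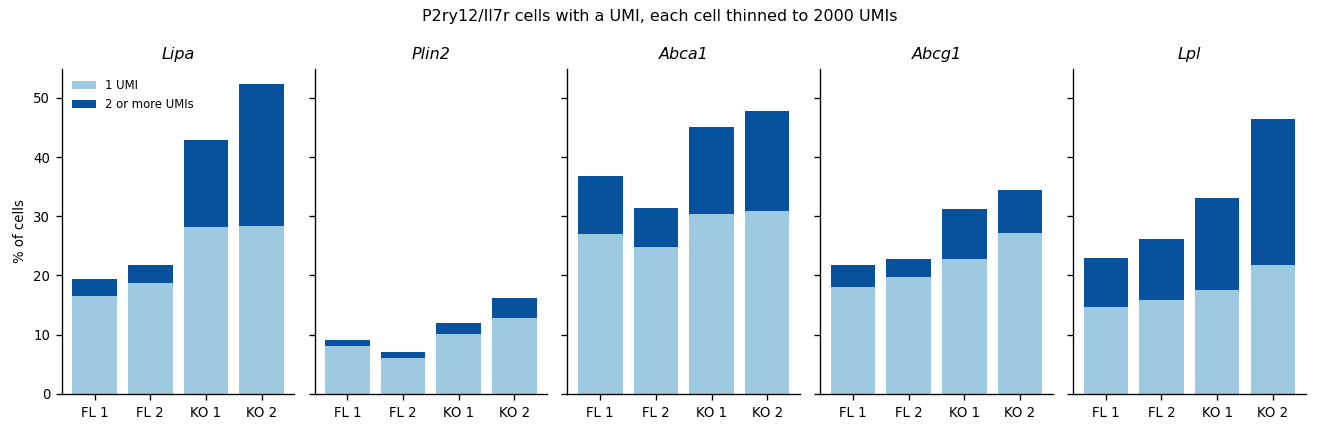
Percent of P2ry12/Il7r cells with 1 UMI (light) and with 2 or more UMIs (dark) of 5 genes after each cell was thinned to 2000 UMIs, by mouse (FL, PRMT1FL and KO, PRMT1Cx3cr1-KO). For Lipa the cells with 2 or more UMIs go from 2.95 and 2.99% in PRMT1FL to 14.6 and 23.9% in PRMT1Cx3cr1-KO mice.

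In Jun/Klf2 cells, led by immediate early genes, 4 of the 9 members tested were called higher in PRMT1Cx3cr1-KO mice and none lower, beside 9.53% of all genes called, 4.99% higher and 4.54% lower. Here the members' median log2 fold change was 0.03, beside 0.00 for all genes. Lipa stood at 118 and 129 CPM in PRMT1FL and at 217 and 294 CPM in PRMT1Cx3cr1-KO cells. Its log2 fold change was 1.01 (standard error 0.13, edgeR adjusted p = 0.00079), called in each of 10 alternatives at 0.79 to 1.79, and exceeded that in the other microglia by 0.80 (standard error 0.07, limma adjusted p = 6.1e-06). Abca1 stood at 233 and 224 CPM against 310 and 329 CPM (log2 fold change 0.45, standard error 0.08, edgeR adjusted p = 0.00641) and was called in each of 10 alternatives. Abcg1 stood at 139 and 139 CPM against 184 and 175 CPM (log2 fold change 0.34, standard error 0.08, edgeR adjusted p = 0.0261). That call was lost in 4 of 10 alternatives, namely without PRMT1FL mouse 1 (edgeR adjusted p = 0.144), PRMT1FL mouse 2 (0.101) or PRMT1Cx3cr1-KO mouse 1 (0.0754) and with DESeq2 (0.0663). Plin2 stood at 109 and 98.7 CPM against 123 and 144 CPM (log2 fold change 0.33, standard error 0.09, edgeR adjusted p = 0.0478). That call was lost in 5 of 10 alternatives, namely without PRMT1FL mouse 1 (edgeR adjusted p = 0.0866), PRMT1FL mouse 2 (0.238) or PRMT1Cx3cr1-KO mouse 2 (0.250, at 0.23), with DESeq2 (0.143) and without the cells of the highest doublet scores (0.0511).

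Of all genes tested in Jun/Klf2 cells, 3.71% departed from the other microglia in their genotype difference, and 3 of 9 members did. These were Lipa, Plin2 (0.38, standard error 0.07, limma adjusted p = 0.00524) and Apoc1 (0.54, standard error 0.08, limma adjusted p = 0.00189). Apoc1 overlapped between genotypes in Jun/Klf2 cells (148 and 167 against 158 and 143 CPM), whereas it was lower in both PRMT1Cx3cr1-KO mice over all microglia. Without PRMT1FL mouse 1 the departures of Plin2 and Apoc1 were 0.32 and 0.41 (limma adjusted p = 0.126 and 0.0767), and that of Plin2 was 0.34 without PRMT1Cx3cr1-KO mouse 2 (limma adjusted p = 0.0528). The stress markers moved here too, at a summed level of 2159 and 2384 CPM in PRMT1FL and 3898 and 4378 CPM in PRMT1Cx3cr1-KO cells, and the border-associated macrophage markers summed to 8.36 and 11.96 against 18.0 and 56.8 CPM. Of the latter sum, Pf4 made up 5.29 and 8.79 against 9.92 and 47.9 CPM. The 10 dissociation-response markers, Jun among them, summed here to 19036 and 17085 CPM in PRMT1FL and 19314 and 16717 CPM in PRMT1Cx3cr1-KO cells. Over all microglia they summed to 7936 and 7610 against 9147 and 6729 CPM. What part the stress, macrophage and dissociation-response markers had in the result was not tested in these cells. With another random seed for the clustering, P2ry12/Il7r and Jun/Klf2 cells were matched to 1 and the same cluster (51.0 and 48.5% of its cells), in which the log2 fold change of Lipa was 1.79, of Plin2 1.12 and of Abca1 0.85, and the split between these states thus depends on the clustering. The departure of Apoc1 in that cluster was 2.09 (limma adjusted p = 2.1e-08).

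**Figure D4:**
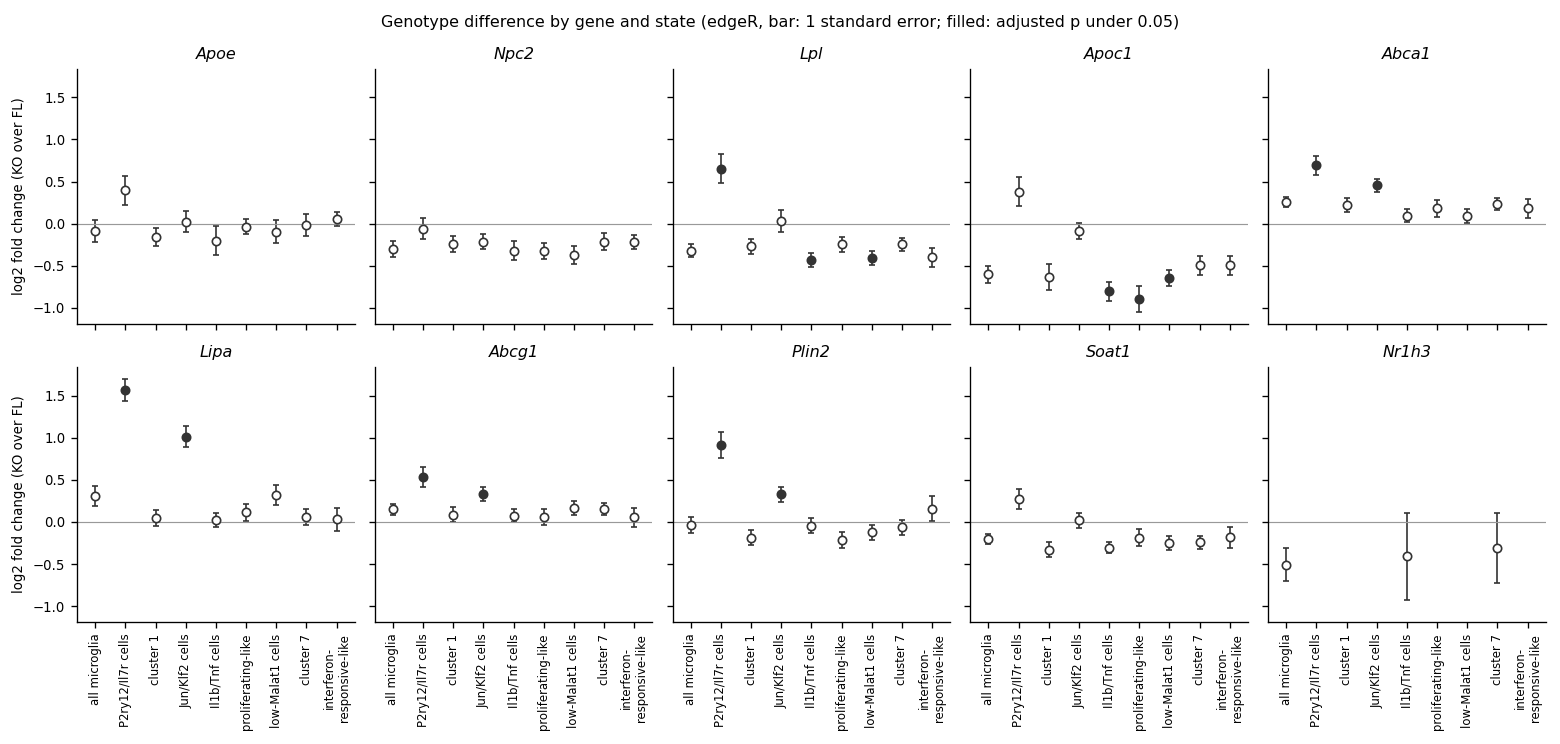
Log2 fold change of PRMT1Cx3cr1-KO over PRMT1FL mice for each gene over all microglia and within 8 states, with bars of 1 standard error from edgeR and filled points at an adjusted p under 0.05 (Nr1h3 could be tested in 3 of these 9 sets of cells). Filled points lie above 0 in P2ry12/Il7r and Jun/Klf2 cells and below 0 for Apoc1 and Lpl in Il1b/Tnf, proliferating-like and low-Malat1 cells, with Lipa highest at 1.57.

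In the other states the calls went the other way and concerned the genes of the particle and its lipase. In Il1b/Tnf cells, 2 of 10 members were called lower, beside 1.95% of all genes called and 0.873% called lower. Apoc1 stood there at 306 and 264 CPM in PRMT1FL and at 191 and 156 CPM in PRMT1Cx3cr1-KO cells, with no overlap (log2 fold change -0.80, standard error 0.11, edgeR adjusted p = 0.0172). Lpl stood at 1223 and 1144 CPM against 897 and 978 CPM (log2 fold change -0.43, standard error 0.08, edgeR adjusted p = 0.0413). Without PRMT1FL mouse 1 or 2 neither was called, at -0.71 and -0.89 for Apoc1 (edgeR adjusted p = 0.233 and 0.154) and at -0.40 and -0.46 for Lpl (edgeR adjusted p = 0.391 and 0.332). Lpl was lost in 6 of 10 alternatives, the others being no TMM scaling (edgeR adjusted p = 0.0606), no cells of the highest doublet scores (0.0596), the raised resolution (0.0628) and another seed (0.0861). Both were lower in PRMT1Cx3cr1-KO mice in low-Malat1 cells as well, where 2 of 9 members and 2.76% of all genes were called, 1.24% of all genes lower. Apoc1 stood at 402 and 366 against 281 and 250 CPM (log2 fold change -0.64, standard error 0.10, edgeR adjusted p = 0.00452), and Lpl at 793 and 760 against 620 and 644 CPM (log2 fold change -0.41, standard error 0.08, edgeR adjusted p = 0.0197). Here too both calls were lost without PRMT1FL mouse 1 (edgeR adjusted p = 0.374 for Apoc1 and 0.4005 for Lpl) and without PRMT1FL mouse 2 (0.179 and 0.309), while the fold changes stayed between -0.71 and -0.38. In proliferating-like cells 1 of 9 members was called, beside 0.335% of all genes and 0.182% lower. It was Apoc1, at 184 and 225 against 136 and 93.2 CPM (log2 fold change -0.89, standard error 0.16, edgeR adjusted p = 0.0388), and it was not called by DESeq2 (adjusted p = 0.262), nor by edgeR without TMM scaling (adjusted p = 0.0542) or without the cells of the highest doublet scores (0.0963).

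No member was called by edgeR in cluster 1, cluster 7 or interferon-responsive-like cells, where 1.32, 0.675 and 0.448% of all genes were called. In cluster 1 an unadjusted edgeR p under 0.05 was reached by 5 of 9 members, beside 1381 of 10465 genes. DESeq2 called 0, 1 and 0 members in cluster 1, cluster 7 and interferon-responsive-like cells. Apoc1 again had the lowest adjusted p from edgeR in each of these states (0.0709, 0.0994 and 0.0692), with fold changes of -0.63, -0.50 and -0.49 on the log2 scale. By level, Abca1 was higher in both PRMT1Cx3cr1-KO mice in 8 of 8 states and Abcg1 in 7 of 8, whereas Npc2 was lower in both in 8 of 8, and Apoc1, Lpl and Soat1 in 6 of 8 each. Over all genes tested, both PRMT1Cx3cr1-KO mice lay above for 25.3% in P2ry12/Il7r cells, 27.3% in cluster 1, 31.0% in Jun/Klf2, 39.0% in Il1b/Tnf, 26.2% in proliferating-like and 38.4% in low-Malat1 cells, 31.8% in cluster 7 and 22.8% in interferon-responsive-like cells. In the same order, both lay below for 26.7, 16.8, 23.9, 13.7, 15.7, 11.9, 18.0 and 17.1% of genes. The states share their mice, so 8 of 8 is not a count of independent results. Apoe overlapped in 7 of 8 states.

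The other 4 departures were negative. The other microglia in these comparisons include P2ry12/Il7r and Jun/Klf2 cells, in which Lipa was called higher, so these departures are not separate from those calls. Within Il1b/Tnf cells and cluster 7 the log2 fold change of Lipa itself was 0.02 and 0.06, not called. In Il1b/Tnf cells 3 of 10 members departed, beside 1.0% of all genes, namely Lipa by -0.35 (standard error 0.05, limma adjusted p = 9.6e-05), Apoc1 by -0.26 (standard error 0.05, limma adjusted p = 0.00921) and Apoe by -0.15 (standard error 0.04, limma adjusted p = 0.0336). The level of Lipa there, 152 and 157 against 153 and 183 CPM, overlapped between genotypes and was not called lower. The call for Lipa was lost without PRMT1FL mouse 2 (-0.33, limma adjusted p = 0.0593), and that for Apoc1 without PRMT1FL mouse 1 (-0.17, limma adjusted p = 0.313), at the raised resolution (-0.03, limma adjusted p = 0.904) and with another seed (-0.08, limma adjusted p = 0.644). That for Apoe was lost in 8 of 9 alternatives, with a limma adjusted p of 0.255 to 0.975 when any 1 mouse was left out. In cluster 7, 1 of 10 members departed, beside 2.65% of all genes. Lipa had -0.38 (standard error 0.04, limma adjusted p = 1e-10) at levels of 162 and 164 against 158 and 196 CPM, which overlapped, and with another seed for the clustering it was 0.20 and not called (limma adjusted p = 0.0726). The cluster matched under that seed held 44.0% of the cells of cluster 7. In cluster 1, proliferating-like, low-Malat1 and interferon-responsive-like cells limma called no member, beside 0.248, 1.12, 0.128 and 0.0747% of all genes. An unadjusted limma p under 0.05 was reached in cluster 1 by 3 of 9 members, beside 865 of 10465 genes.

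A pair of small clusters, counted among the microglia, came mostly from PRMT1Cx3cr1-KO mice and was not tested. Mmp12/Gpnmb cells numbered 4 and 4 in PRMT1FL and 56 and 97 in PRMT1Cx3cr1-KO mice. In the PRMT1Cx3cr1-KO mice they held Apoe at 75199 and 70584 CPM, Lipa at 780 and 915 CPM, Plin2 at 404 and 437 CPM and Abca1 at 367 and 474 CPM, each above every state of the same mice. B1-like cells, named from Ms4a7, Clec12a and Cd38 after a disease-associated class, numbered 19 and 10 against 68 and 354. Their median log2 ratio to all other cells was -1.12 for homeostatic markers and 0.435 for border-associated macrophage markers. The latter ratio was negative in every state, and whether B1-like cells are microglia or macrophages was not tested. Apoe stood there at 113318 and 94445 CPM in PRMT1Cx3cr1-KO mice, and Lpl at 253 and 311 CPM, below every state of the same mice.

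The other genes of these pathways were taken from 8 lists of 86 genes, of which 74 had enough UMIs over all microglia. None was called lower in PRMT1Cx3cr1-KO mice, and of all genes tested 0.615% were called in either direction. Stard4, for a cytosolic sterol carrier, was called higher, at 2.10 and 2.13 against 3.99 and 4.67 CPM (log2 fold change 0.96, standard error 0.13, edgeR adjusted p = 0.0494). Lists without a call are given by their highest gene and their widest difference, as far as reported here. Among 14 genes of lysosomal glycolipid breakdown, Glb1, for beta-galactosidase, stood at 92.3 and 91.6 against 69.2 and 62.7 CPM (-0.55, standard error 0.08, edgeR adjusted p = 0.052). Among genes of neutral lipid storage and release, Nceh1, a cholesteryl ester hydrolase, stood at 69.5 and 71.1 against 65.5 and 58.6 CPM, and Mgll, for monoglyceride lipase, at 22.5 and 24.3 against 17.1 and 13.5 CPM (-0.68, standard error 0.13, edgeR adjusted p = 0.0872). Among LXR targets and nuclear receptors, Arl4c stood at 236 and 219 against 248 and 225 CPM, and Srebf1, for the lipogenic factor SREBP-1, at 17.6 and 17.9 against 24.2 and 24.4 CPM (0.38, standard error 0.07, edgeR adjusted p = 0.0775). Apoc2, for the activator of lipoprotein lipase, stood at 55.5 and 55.0 against 61.7 and 80.2 CPM, Apoc4 at 59.1 and 51.3 against 69.1 and 73.7 CPM, and Fabp5, a fatty acid carrier, at 474 and 486 against 419 and 458 CPM. None of these 3 passed the test (edgeR adjusted p = 0.230, 0.136 and 0.184). Apoc2 and Apoc4 both overlap a readthrough gene of the same strand, so their counts are uncertain.

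In P2ry12/Il7r cells, 63 of the 86 genes were tested, with 16 called higher and 5 lower in PRMT1Cx3cr1-KO mice. Of all genes tested there, 6.04% were called higher and 5.78% lower. Among uptake receptors, 3 of 9 were higher and 1 lower. The scavenger receptor gene Msr1 rose from 3.17 and 0.839 to 6.89 and 17.4 CPM and Lrp1, for a broad endocytic receptor, from 309 and 280 to 378 and 392 CPM (edgeR adjusted p = 0.00019 and 0.0244). Sorl1, for a sorting receptor, was at 31.0 and 31.1 against 15.8 and 18.4 CPM (edgeR adjusted p = 0.00357). Of 13 nuclear receptor and LXR target genes, Scd2, for a fatty acid desaturase, rose from 59.5 and 60.7 to 114 and 163 CPM, Srebf1 from 14.8 and 12.6 to 25.1 and 28.8 CPM and Smpdl3a from 35.9 and 28.0 to 43.4 and 54.7 CPM, while Rxrb, for a partner receptor of LXR, fell from 69.0 and 54.3 to 39.3 and 40.5 CPM. Of 4 efflux and particle genes, Pltp, for phospholipid transfer protein, rose from 4.58 and 2.80 to 15.8 and 31.3 CPM and Apoc4 from 15.1 and 10.9 to 18.6 and 49.4 CPM. Of the lysosomal genes 12 of 14 were not called. Scarb2, for a lysosomal membrane protein, was called higher (178 and 168 against 232 and 217 CPM) and Glb1 lower (65.1 and 80.0 against 39.3 and 34.4 CPM). Of the storage genes 9 of 11 were not called, with G0s2 called higher and Mgll lower. Apoc2 and Sel1l among lipase partners, Ch25h and Stard4 among sterol genes and Fabp3 and Fabp5 among fatty acid carriers were called higher, and Cyp27a1 lower.

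In Jun/Klf2 cells, 65 of the 86 genes were tested, with 11 called higher and 5 lower, beside 4.99% of all genes called higher and 4.54% lower. Msr1, Apoc2, Apoc4, Pltp, Srebf1, Scd2 and Fabp3 were called higher in both states. Olr1, Mylip and Gramd1b were called higher in Jun/Klf2 cells. Mylip, for a ubiquitin ligase, rose from 287 and 257 to 428 and 379 CPM (edgeR adjusted p = 0.00569). Of 14 lysosomal glycolipid genes 3 were lower, namely Arsa, for the enzyme that splits the myelin lipid sulfatide, from 23.9 and 26.7 to 18.9 and 19.0 CPM, Gm2a from 229 and 233 to 185 and 163 CPM and Glb1 from 66.6 and 67.8 to 43.1 and 41.1 CPM (edgeR adjusted p = 0.036, 0.0139 and 0.00083). Mgll and Cyp27a1 were the remaining genes called lower. The 2 states share their mice, and their calls are not independent of each other.

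Across microglia of a mouse, thinned to 2000 UMIs, the members varied together weakly. The mean Pearson correlation over the 4 mice, of the logarithm of 1 plus the count, was over 0.1 for 5 of 45 pairs. It was 0.32 for Apoe and Npc2, 0.26 for Apoe and Apoc1, 0.17 for Apoe and Lpl, 0.13 for Apoc1 and Npc2 and 0.12 for Apoe and Plin2. Apoe had a part in 4 of these 5. The pairs among Lipa, Plin2 and Abca1 lay between 0.02 and 0.05, and Lpl and Abca1 at 0.00. Cells share libraries and free RNA, counts of the rarer members are mostly 0, and the values are a description. The genes most like Apoe, among 4376 genes found in at least 5% of these cells, were Lyz2 (0.49), Fau (0.38), Rpl23 (0.37), Fth1 (0.37) and Cd63 (0.35). Those most like Lpl were Ccl6 (0.33), Cd9 (0.28), Ctsb (0.26), Ctsz (0.23) and Spp1 (0.23), and those most like Abca1 were Malat1 (0.17), Junb (0.09), AC149090.1 (0.09), Zeb2 (0.09) and Zfp36 (0.08).

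**Figure D5:**
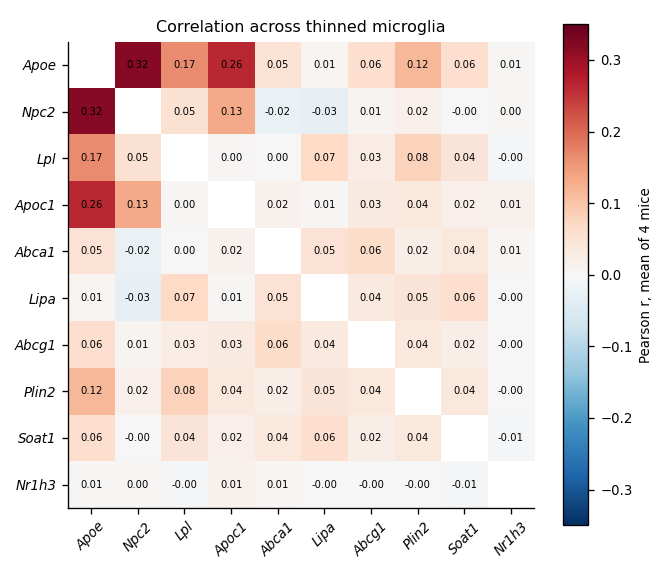
Pearson correlation between each pair of the 10 genes across microglia thinned to 2000 UMIs, as the mean of the values of 4 mice (colour and number). Apoe with Npc2, Apoc1, Lpl and Plin2 and Apoc1 with Npc2 lie over 0.1, and the other pairs lie near 0.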

How the data were processed

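Droplet-based single-cell RNA-seq with 3′ UMI counting was done on sorted microglia of 4 mice, 2 per genotype. The authors deposited raw UMI counts per gene and barcode, aligned to mm10 with Cell Ranger 3.1.0 per the labels, and the submitters' processing notes also name Seurat 3.2.0 and Scanpy 1.5.2. The deposited barcode and gene tables, whose unit is other than a measurement, gave names alone. As in the study, cells were kept at 200 to 6000 genes and up to 10% mitochondrial UMIs. Clusters were made with Leiden (resolution 0.5, 20 components, 15 neighbours, 2000 variable genes, scanpy 1.11.5). Members, the other listed lipid genes and genes past the cut on genotype difference given above were left out. Counts were summed per mouse and tested with edgeR 4.0.16 (quasi-likelihood, TMM, filterByExpr) in R 4.3.3, and departures of a state from the other microglia with limma 3.58.1 on 1 value per mouse (log2 CPM in the state minus that in the other microglia, prior count 2, trend and robust). P-values were adjusted by Benjamini-Hochberg over all genes tested, and genes under 0.05 were called. DESeq2 1.42.0 was an alternative. The labels name the samples as separate mice of a group only by number. The p-values rest on the spread between these samples, with the variance of each gene drawn towards that of all genes. A very small p-value for a gene therefore does not measure the spread of that gene between mice alone. Tested on simulated data, edgeR recovered 99.0% of genes changed 2-fold over microglia (13686 genes), with 10 false calls. For the state difference, limma recovered 66.5% (11926 genes), with 5 false calls. The simulation gave every gene the same fixed dispersion and changed only genes above a count limit. It drew the state and the other microglia independently, with no shared mouse effect. The recovered shares are thus not the power reached in these mice. Scrublet's automatic cut marked 0 to 4 cells per library, so doublets were kept, and the 8% with the highest scores per library were left out as an alternative. The members and all lists were chosen with earlier results of these data known. Named genes were the members, every listed gene called, and for a list without a call the gene with the highest CPM and that with the widest fold change at 10 CPM or more. Some listed genes are not reported here, although counts over lists include them. For Apoe, Lpl and Abca1, the 5 genes with the highest mean correlation were named. Promoters were taken from RefSeq tables (GRCm38.p6) and gene coordinates from the GENCODE vM21 annotation of the same build.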

Additional observations from a re-analysis of the deposited data

Results flagged for a closer look

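A difference between groups was found for 13 pairs of a gene and a microglial state, in which the genotype difference in the state departed from that in the other microglia of the same mice (limma adjusted p under 0.05, 2 mice against 2). On the log2 scale, PRMT1Cx3cr1-KO minus PRMT1FL, the departure in P2ry12/Il7r cells was 1.31 for Lipa, 0.88 for Plin2, 0.49 for Soat1, 0.47 for Apoe, 0.46 for Abca1 and 0.40 for Abcg1. In Jun/Klf2 cells it was 0.80 for Lipa, 0.54 for Apoc1 and 0.38 for Plin2. In Il1b/Tnf cells it was -0.35 for Lipa, -0.26 for Apoc1 and -0.15 for Apoe, and in cluster 7 it was -0.38 for Lipa. Each state is part of the other microglia in the remaining comparisons, so the departures are not independent of each other. Lipa and Plin2 in P2ry12/Il7r cells and Lipa in Jun/Klf2 cells were called under each of the 9 alternatives tried for them, and the other 10 were lost under at least 1. No group had enough mice to test for an outlying sample.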

How the results depend on the processing

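Over microglia, 85 genes and 0 members were called by edgeR. These became 733 genes and 4 members with DESeq2, 1587 and 5 without the filter on low counts, 749 and 1 over all cells, and 2936 and 5 with the cluster as a term of 1 model over all states. A filter at 10 CPM gave 19 genes and thinned cells 207, and leaving out 1 mouse gave 4 to 2438 genes and 0 to 5 members. Within states, 3128 genes summed over states became 1627 with DESeq2 and 1247 to 8934 without 1 mouse, and 14 member pairs became 7 to 31 without 1 mouse. With another seed, where the cluster matched to both P2ry12/Il7r and Jun/Klf2 cells was counted once, they were 3231 and 14. For departures from the other microglia, 1774 genes became 2816 with another seed and 589 to 2653 without 1 mouse, and 13 pairs became 13 with another seed and 5 to 20 without 1 mouse. With 1 mouse left out, the remaining mouse is assumed to vary like the other genotype. Of correlations over 0.1, 5 pairs became 3 at 1000 UMIs.

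The same-numbered mice share only a number. Their deviations from the genotype means correlated at 0.1418. With 2 mice per genotype this value is the same for both pairs by arithmetic, so it is a single value. With the replicate block, 489 genes and 1 member (Apoc1) were called over microglia, 5327 genes and 20 pairs within states, and 20 pairs as departures. The direction over microglia, not called in any of these fits, reversed for Plin2 (-0.03) without TMM scaling (0.044), over all cells (0.017), in thinned cells (0.10), with the cluster as a term (0.025), without PRMT1FL mouse 1 (0.082) and without PRMT1Cx3cr1-KO mouse 1 (0.040), and for Apoe (-0.08) without PRMT1FL mouse 1 (0.0062) or PRMT1Cx3cr1-KO mouse 2 (0.0053). With 1 mouse left out, the log2 fold changes ranged from -0.14 to 0.082 for Plin2 and from -0.17 to 0.0062 for Apoe. The departure of Lipa in cluster 7 reversed to 0.20 with another seed. Under that seed cluster 7 was matched to a cluster of 8684 cells, 51.3% of them from cluster 7, which held 44.0% of cluster 7. The value of 0.20 was thus taken on a largely different set of cells, and the cause of the reversal was not tested. Of the 14 calls within states 5 were kept under every alternative, and of the 13 departures 3. The alternative without low-Malat1 cells (89 genes and 0 members) and the 8% cut on doublet scores, which stands in for Scrublet's own, were chosen after seeing the data. Nr1h3, near 1 CPM, was limited by depth.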
